A study of Mus musculus with 19 samples.

Results

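The 35 genes described here encode the subunits of the proteasome and its activator rings. They were chosen by name: the 7 subunits of the outer alpha ring (Psma1 to Psma7) and the 7 of the inner beta ring (Psmb1 to Psmb7) of the 20S core, 6 ATPases (Psmc1 to Psmc6) and 11 other subunits (Psmd genes) of the 19S cap, and 4 activator genes (Psme1 to Psme4). They are 35 of the 39017 genes in each library's table, and all 35 were among the 13926 genes with enough counts to be tested. Translating ribosome affinity purification (TRAP), which pulls down tagged ribosomes with the mRNA they carry, had been applied to the striatum of female mice. The Drd1::EGFP-L10a strain tags ribosomes of D1 spiny projection neurons and the Drd2::EGFP-L10a strain those of D2 spiny projection neurons, both on a background the labels spell C56BL/6J. All 4 groups carry the fluorescent ribosomal protein, and tagging follows the activity of the receptor gene that drives it. There are 4 libraries of each strain at each age: the mice were 42 days old (called young) or 2 years old (called old). A further 3 samples of the mouse fibroblast line NIH-3T3 are not analysed here.

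The proteasome degrades proteins that carry chains of ubiquitin. In the 20S core, 3 beta subunits hold the proteolytic sites: Psmb6 (caspase-like), Psmb7 (trypsin-like) and Psmb5 (chymotrypsin-like). The 19S cap binds ubiquitin, removes it, unfolds the substrate with its ATPase ring and opens the gate of the alpha ring. Psme1 and Psme2 form the PA28 alpha-beta ring and Psme3 the PA28 gamma ring, which bind the core in place of the 19S cap, and Psme4 encodes PA200. Neurons rely on the proteasome for turnover of synaptic proteins, and loss of its function is widely studied in ageing brain.

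The libraries held between 27484038 and 70903004 assigned fragments, and the old D1 libraries stood apart. Fragments averaged 151 to 164 bases there and 170.3 to 195 bases in the other 12 libraries. From 10364 to 13694 genes had a count, against 12770 to 14992. Counts of the noncoding gene Gm42418 made up 4.45 to 5.41% of the total, and 9.76 to 18.2% in the others. The summed level of 7 D1 marker genes was 2634 to 3461 TPM in young D1, 4828 to 7693 in old D1 and 144 to 689 in D2 libraries. The 5 D2 markers present in the tables summed to 108 to 551 TPM in D1 and 5455 to 11479 in D2 libraries, so every library matched its labelled neuron type. Within D2, the D1 marker sum was 144 to 169.8 TPM in young and 439 to 689 in old libraries. By the gene test described below, 4 of the 7 D1 markers were called higher with age in D2, beside 0.0646% of all tested genes. In D1 it called 1 of the 7 higher, beside 5.39%. The oligodendrocyte markers summed to 127 to 289.7 TPM in young D1, 75.6 to 190.5 in old D1, 158 to 267 in young D2 and 247 to 353 in old D2. The lists of astrocytes, microglia and endothelial and mural cells summed to at most 39.4, 18.0 and 20.7 TPM in any library. The cholinergic interneuron list summed to at most 26.7 TPM. Markers of all spiny projection neurons (6 genes) summed to 5126 to 6499 TPM in young D1, 4105 to 4349.6 in old D1, 7576 to 9098 in young D2 and 6729 to 7438 in old D2. The microglial gene C1qa was listed at 0 in all 16 libraries. By the index sequences in the labels, the second part of the index is the same within a group; that of old D1 occurs in no other group, whereas old D2 and young D1 share theirs. The first part differs between all young and all old libraries. Index therefore cannot be told apart from age, nor from the old D1 group in any comparison that uses it. The part of fragment length, depth and other cell types in the results was not tested.

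With age, 6 of the 35 genes passed the test in D1 neurons and 0 in D2 neurons. In D1, Psmc3, Psmd7 and Psma2 rose and Psmb2, Psmb4 and Psma5 fell. The test was edgeR's quasi-likelihood test, with Benjamini-Hochberg adjustment over all 13926 genes and a threshold of 0.05. It called 10.8% of all tested genes in D1, 5.39% higher and 5.44% lower, against which the 6 of 35 are to be read. Fitted on the young and old D1 libraries alone, without the spread of the D2 libraries, edgeR called 1 of the 6, Psmc3, and 305 of 12244 genes in all. The median log2 change of the 35 genes in D1 was -0.03, beside -0.06 over all tested genes, and 17 of 35 were positive. In D2 edgeR called 0.079% of all genes (0.0646% higher, 0.0144% lower). Of the 35 proteasome genes 2 had an unadjusted p under 0.05, and DESeq2 and voom with limma also called 0. The median of the 35 in D2 was -0.18 beside 0.01 over all genes, and 7 were positive. The 4 old D1 values of a gene did not overlap the 4 young D1 values for 7 of the 35 genes, beside 13.8% of all genes (6.17% higher, 7.6% lower). In D2 this held for 2 of 35, Psmb5 and Psme1, beside 7.07% of all genes (4.43% higher, 2.64% lower).

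**Figure D1:**
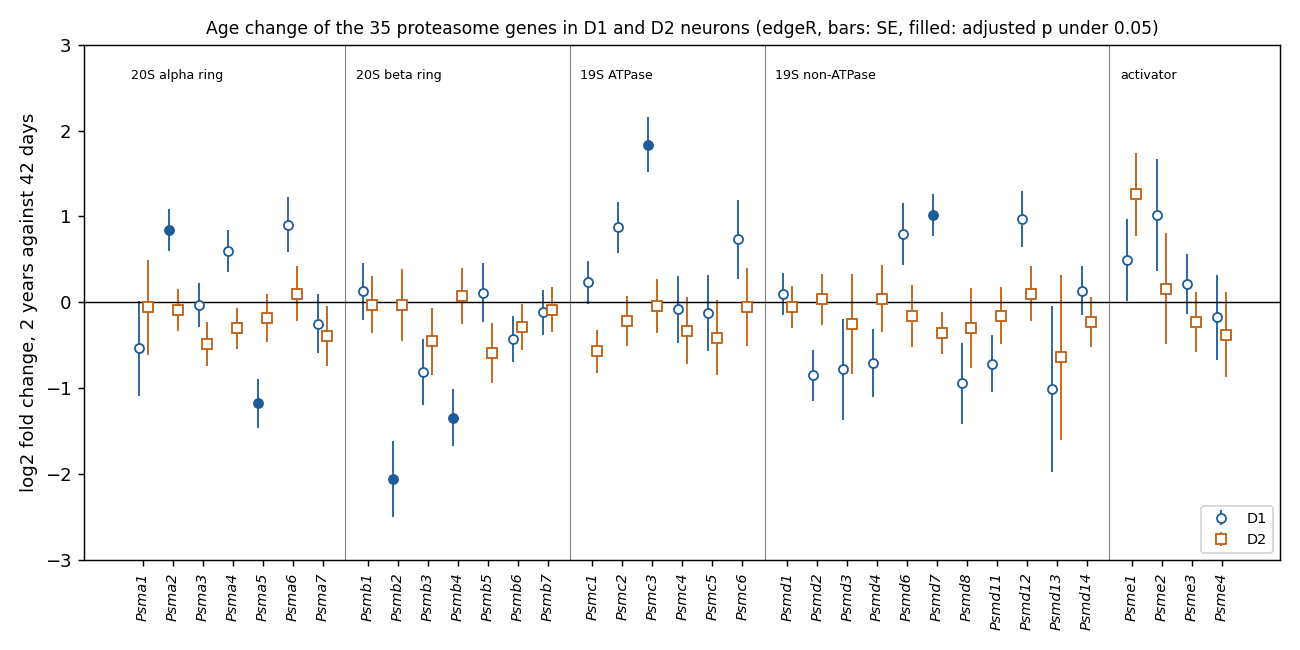
Log2 fold change with age (vertical axis, 2 years against 42 days) of each of the 35 genes, in D1 (circles) and D2 (squares) neurons; bars are the standard error of edgeR and filled symbols have an adjusted p under 0.05. The 6 filled symbols are all in D1 and run from -2.06 (Psmb2) to 1.84 (Psmc3), whereas the D2 values run from -0.64 to 1.26 with none filled.

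The 7 alpha subunits form the outer rings of the core, whose tails gate the entry of substrates. Psma2 (chr13:14613240-14674236, build GRCm38, as all positions here) was read at 269, 263, 333 and 199 TPM in young D1 and at 369, 494, 512 and 573 TPM in old D1. TPM is a share of the library's transcripts, corrected for transcript length. Every old D1 library lay above every young D1 library; the log2 change was 0.85 (SE 0.25, edgeR adjusted p = 0.033). In D2 the values of Psma2 were 203, 198, 232 and 325 TPM at 42 days and 204, 222, 195 and 337 TPM at 2 years, which overlap (log2 change -0.09). The D1 call ended without any 1 of 8 libraries (young D1 replicates 1, 2 and 4, young D2 replicates 2 and 3, old D1 replicates 2 and 4, old D2 replicate 2), with adjusted p from 0.0501 to 0.10. It also ended with no count filter, with voom, and once a trend with GC content and length was removed, where the change was 0.35 (edgeR adjusted p = 0.34).

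Psma5 (chr3:108256926-108279974) went the other way. It stood at 157, 131, 227 and 139 TPM in young D1 and at 93.4, 64.6, 63.5 and 77.9 TPM in old D1, again with no overlap. The log2 change was -1.18 (SE 0.28, edgeR adjusted p = 0.011), and the call ended with voom. In D2 Psma5 stood at 161, 122, 124 and 101 TPM at 42 days and at 100.2, 129, 98.0 and 152 TPM at 2 years, a log2 change of -0.18. The other 5 alpha genes were not called. Psma6 and Psma4 came closest, with log2 changes in D1 of 0.90 (SE 0.32) and 0.60 (SE 0.24) and edgeR adjusted p of 0.077 and 0.12.

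Among the 7 beta subunits 2 fell in D1 and 0 rose, and both are structural subunits without a proteolytic site. Psmb2 (chr4:126677630-126709714) was read at 461, 317, 317 and 257 TPM in young D1 and at 217, 67.8, 71.7 and 17.9 TPM in old D1. The groups did not overlap, and the lowest old D1 library, replicate 4, lay far below the highest, replicate 1. The log2 change was -2.06 (SE 0.44, edgeR adjusted p = 0.0057). In D2 Psmb2 was at 342, 305, 364 and 273 TPM at 42 days and at 224, 447, 356 and 299 TPM at 2 years, which overlap (log2 change -0.03).

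Psmb4 (chr3:94884093-94886961, minus strand) also fell by the counts, with a log2 change of -1.34 (SE 0.33, edgeR adjusted p = 0.014). Its gene level in TPM, however, was 339.8, 259.9, 249 and 267 in young D1 and 229.5, 70.8, 283 and 259.6 in old D1. Old D1 replicates 1 and 2 lay below the lowest young D1 library and replicates 3 and 4 within the range, and on log2(TPM + 1) limma gave -0.57 with an adjusted p of 0.25. The call also ended with voom and once the trend with GC content and length was removed. In D2 Psmb4 was at 303, 284, 308 and 262 TPM at 42 days and at 269, 287, 326 and 309 TPM at 2 years. TPM divides by isoform length, and more of the Psmb4 TPM in old D1 lay in a short isoform, whose values are given with the isoforms.

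The 3 catalytic genes were not called in any comparison of gene totals. Psmb5, the highest of the 35 genes by mean TPM, stood at 407, 274, 462 and 159 TPM in young D1, 225, 429, 176 and 547 in old D1, 357, 485, 459 and 384 in young D2, and 320.3, 333, 287 and 247 in old D2. Its values spread widely in both D1 groups, and only its D2 groups did not overlap (log2 change -0.59, SE 0.35, edgeR adjusted p at its maximum). Psmb7 was at 314, 438, 479 and 170.1 TPM in young D1 and 498, 340.3, 286 and 217 in old D1, against 234, 375, 312 and 359 in young D2 and 318, 328, 314 and 319 in old D2. Its groups overlapped, and old D2 had the narrowest spread of any of the 35 genes in that group, with a coefficient of variation of 1.86%. Psmb6 had gene levels of 340.4, 240.4, 274 and 304 TPM in young D1 and 239, 329, 262 and 180.4 in old D1, and of 234, 351, 331 and 248 TPM in young D2 and 195, 315, 278 and 219 in old D2. Its log2 change was -0.42 (SE 0.27, edgeR adjusted p = 0.33), but its isoforms differed, with the values given further on.

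The 6 ATPases form the ring that unfolds substrates. Psmc3 (chr2:91054009-91066369) showed the largest rise of the 35 genes in the edgeR fit. Its level was 105, 119, 164 and 61.1 TPM in young D1 and 977, 817, 497 and 693 TPM in old D1. All old D1 libraries lay above the other 12: young D2 held 74.9, 74.7, 105 and 112 TPM and old D2 169, 95.0, 88.4 and 97.6. The log2 change in D1 was 1.84 (SE 0.32, edgeR adjusted p = 0.0012), and in D2 it was -0.04 (SE 0.31). On log2(TPM + 1) limma gave 2.76 in D1. The difference between the 2 age changes was itself called, at 1.88 (SE 0.44, edgeR adjusted p = 0.035; 1.77% of all genes were called for it, 0.926% higher and 0.84% lower). That call ended without any 1 of 12 libraries, all but young D1 replicate 3, old D1 replicates 3 and 4 and old D2 replicate 1, with log2 values from 1.65 to 1.95 and adjusted p from 0.053 to 0.091.

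**Figure D2:**
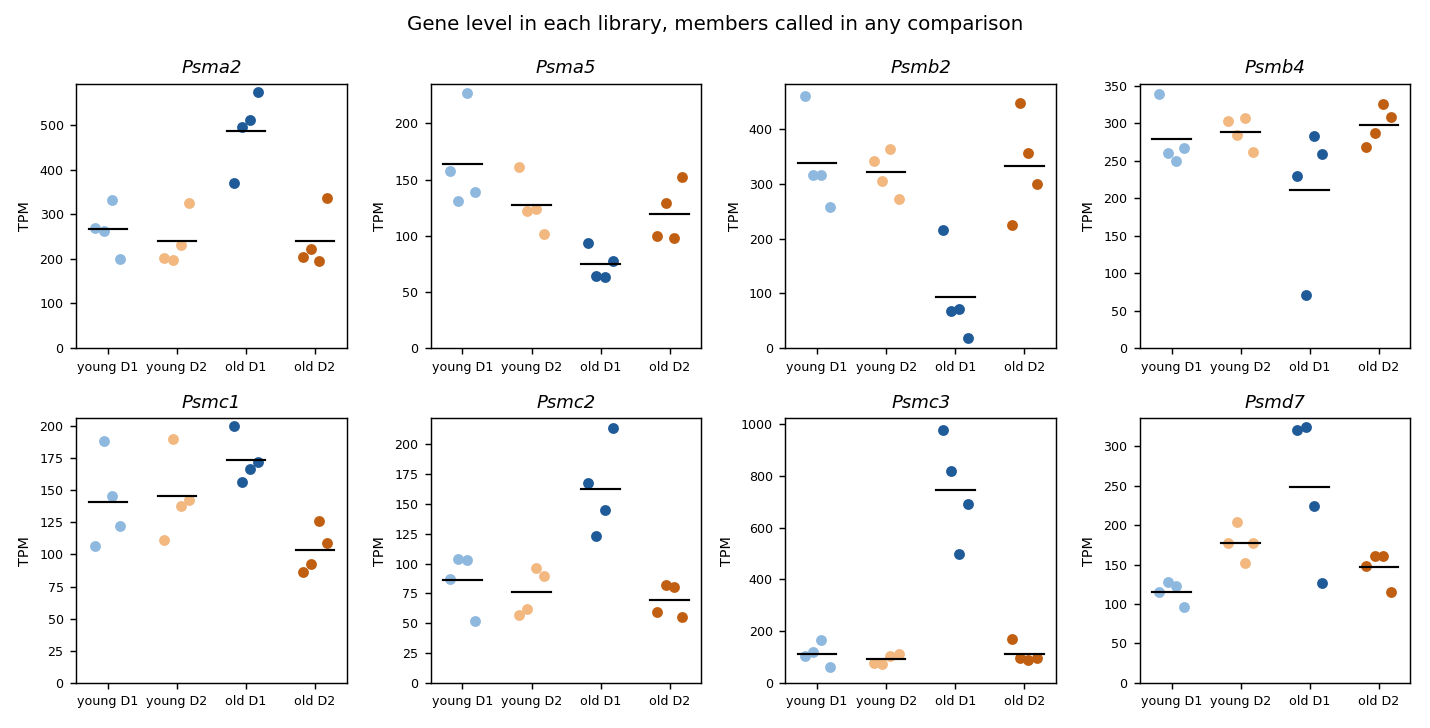
Gene level in TPM (vertical axes, from 0) of the 8 genes called in any comparison; each point is 1 library and each line the mean of the 4 libraries of a group. In Psmc3 the 4 old D1 libraries (497 to 977 TPM) sit above the other 12, in Psmb2 they sit between 17.9 and 217 TPM, and in Psmb4 a single old D1 library sits at 70.8 TPM with the other 3 at 229.5 to 283.

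Most of the rise of Psmc3 lay in a short isoform. Psmc3-206, annotated in GENCODE M21 as a processed transcript without a coding sequence, has 2 exons and 436 bases, lacks 81.2% of the exonic bases of the full-length isoform at the 5′ end, and ends beside it at the 3′ end. It was read at 838, 725, 403 and 585 TPM in old D1, against 30.9, 50.5, 96.7 and 26.1 in young D1. In D2 the values were 16.9, 26.1, 38.3 and 45.3 TPM (young) and 92.0, 43.9, 31.2 and 40.8 TPM (old). The full-length coding isoform Psmc3-202 (1636 bases, 12 exons) was at 51.7, 52.6, 57.7 and 17.5 TPM in young D1 and at 64.8, 88.0, 86.5 and 101 TPM in old D1. On protein-coding isoforms alone, the log2 change of Psmc3 was 0.93 (SE 0.39) with an edgeR adjusted p of 0.13, so the gene was no longer called. That count, chosen after the data were seen, called 6 of the 35 genes with age in D1: Psma2 and Psmd7 rose, and Psma5, Psmb2, Psmb4 and Psmb6 fell. It called 11.5% of 12213 genes, 5.46% higher and 6.01% lower. For the difference between the age changes it called Psmd7 higher and Psmb2 lower, beside 2.27% of all genes (1.03% higher, 1.24% lower). In D2 it called 0 of 35, with 1 at an unadjusted p under 0.05, beside 0.0901% of all genes (0.0655% higher, 0.0246% lower).

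These sequences show where 4 such short isoforms depart from the full-length mRNA of the same gene on the 5′ side or inside it. Whether fragments on these bases set the isoform levels was not tested. Capitals mark bases of that kind that the short isoform has and the full-length isoform lacks, and lower case marks exonic bases beside them that both share (at most 20 on a side), all 5′ to 3′ on the gene's strand from GENCODE M21 transcripts.
Psmc3-206: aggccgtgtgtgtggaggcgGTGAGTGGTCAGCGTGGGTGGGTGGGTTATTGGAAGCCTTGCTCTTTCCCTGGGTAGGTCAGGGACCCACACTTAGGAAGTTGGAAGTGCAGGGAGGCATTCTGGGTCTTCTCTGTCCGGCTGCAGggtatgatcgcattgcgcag
Psmb6-202: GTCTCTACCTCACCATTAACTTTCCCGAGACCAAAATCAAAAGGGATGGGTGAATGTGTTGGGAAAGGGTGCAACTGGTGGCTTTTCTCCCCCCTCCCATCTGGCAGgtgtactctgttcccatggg
Psme2-207: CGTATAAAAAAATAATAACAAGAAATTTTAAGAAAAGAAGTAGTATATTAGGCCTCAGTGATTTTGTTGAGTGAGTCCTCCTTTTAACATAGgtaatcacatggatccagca
Psme1-209: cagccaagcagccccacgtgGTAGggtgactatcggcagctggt
In Psmc3-206 the capitals (chr2:91059128-91059253, plus strand) are the whole 126-base intron before the last exon of Psmc3-202, kept in the transcript. In Psmb6-202 they (chr11:70527072-70527178, plus strand) are the last 107 bases of the intron before the fifth exon of Psmb6-201, where the short isoform begins; it also runs 209 bases past the 3′ end of Psmb6-201, which are not printed. In Psme2-207 they (chr14:55588513-55588604, minus strand) are the last 92 bases of the intron in which that isoform begins. In Psme1-209 they (chr14:55580973-55580976, plus strand) are 4 bases that extend an exon into the next intron, and GENCODE M21 types this isoform as a target of nonsense-mediated decay.

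**Figure D3:**
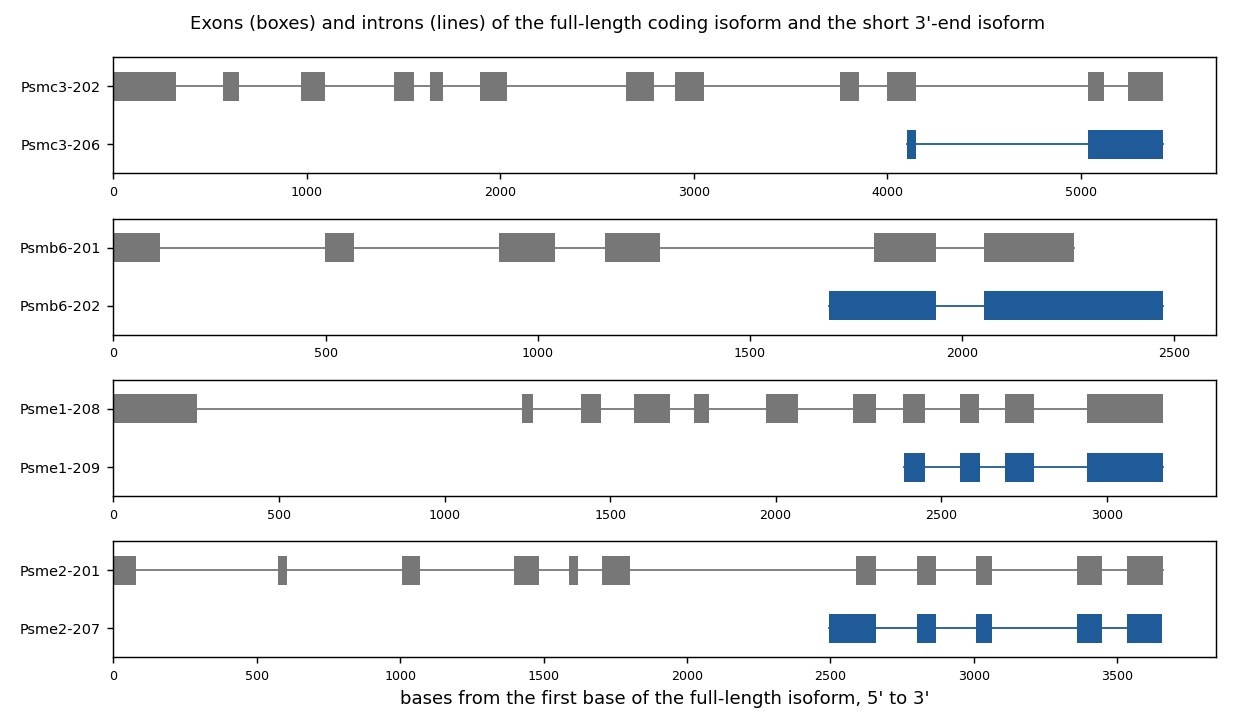
Exons (boxes) and introns (lines) of the full-length coding isoform (grey) and the short isoform (blue) of Psmc3, Psmb6, Psme1 and Psme2; the horizontal axis counts bases from the first base of the full-length isoform, 5′ to 3′. Each short isoform lacks the exons at the 5′ side and keeps those at the 3′ side; Psmc3-206 has 2 exons where Psmc3-202 has 12.

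For Psmb6, the caspase-like catalytic subunit, the full-length Psmb6-201 was read at 254, 114, 117 and 180.1 TPM in young D1 and at 42.3, 12.8, 29.3 and 0 TPM in old D1. The short Psmb6-202 (674 bases, 2 exons) was at 81.1, 125, 156 and 121 TPM in young D1 and at 196, 315, 233 and 180.4 TPM in old D1. Neither isoform's groups overlapped, and they moved in opposite directions. In D2 the full-length isoform had means of 202 ± 21.7 and 178 ± 46.8 TPM (SD, n = 4) and the short one 86.8 ± 46.4 and 71.7 ± 21.3 at 42 days and 2 years.

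The shift was tested with limma on the log2 ratio of isoforms not typed protein-coding to those typed protein-coding, with 1 TPM added to each, over 3430 genes with both kinds at 1 TPM or more and the gene at 5 TPM or more on average. This test, too, was chosen after the data were seen. The ratio of Psmb6 rose by 4.67 in D1 (SE 0.96, limma adjusted p = 0.0089), beside 0.04 in D2. On protein-coding isoforms alone, edgeR gave a log2 change of -3.11 (SE 0.84, adjusted p = 0.022), so Psmb6 fell by that count while its gene total was not called.

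Psme1, the alpha subunit of PA28, had gene levels of 99.5, 48.2, 150.0 and 45.8 TPM in young D1 and 181, 125, 209 and 189.5 in old D1, which overlap. Its short isoform Psme1-209 (439 bases) was at 70.0, 29.7, 126 and 25.7 TPM in young D1 and at 159.6, 121, 185 and 189.5 TPM in old D1. The full-length Psme1-208 was at 20.03, 17.2, 18.0 and 17.8 TPM in young D1 and at 7.59, 0, 3.81 and 0 in old D1, and it was the rarer form in all 16 libraries. The isoform ratio rose by 3.98 in D1 (SE 0.86, limma adjusted p = 0.012), beside 0.01 in D2. In D2 the gene level of Psme1 was 45.0, 32.2, 21.2 and 40.0 TPM at 42 days and 84.1, 125, 53.7 and 85.8 TPM at 2 years. These did not overlap, yet the log2 change of 1.26 (SE 0.48) had an edgeR adjusted p of 0.72. Of the 35 genes, 9 share exonic bases with another gene, 8 of them on the opposite strand, and whether counting used strand is not stated in the sources used here. Psme1 shares 14 bases with Emc9, which was read at 16.8 to 226 TPM, Psmc3 shares 215 with Slc39a13 (0 to 58.2 TPM) and Psmb7 405 with Nek6 (3.87 to 41.7 TPM), all on the opposite strand.

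Psme2, the beta subunit of PA28, was more uneven. Its short isoform Psme2-207 was at 118, 37.4, 103 and 476 TPM in old D1 and at 9.39, 27.3, 71.8 and 17.0 in young D1, and old D1 replicate 2 lay within the young range. The full-length Psme2-201 was at 24.9, 6.71, 5.38 and 22.6 TPM in old D1. The gene levels were 145, 44.8, 111 and 504 TPM in old D1 and 22.4, 56.8, 125 and 79.4 in young D1. Neither the gene (log2 change 1.02, SE 0.65, edgeR adjusted p = 0.34) nor the isoform ratio (3.26, SE 0.94, limma adjusted p = 0.056) was called with age in D1. The near-identical copy Psme2b could share its fragments, so these levels are uncertain. In D2 the gene levels of Psme2 were 57.9, 61.3, 51.0 and 60.9 TPM at 42 days and 85.3, 60.5, 49.1 and 52.0 at 2 years.

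**Figure D4:**
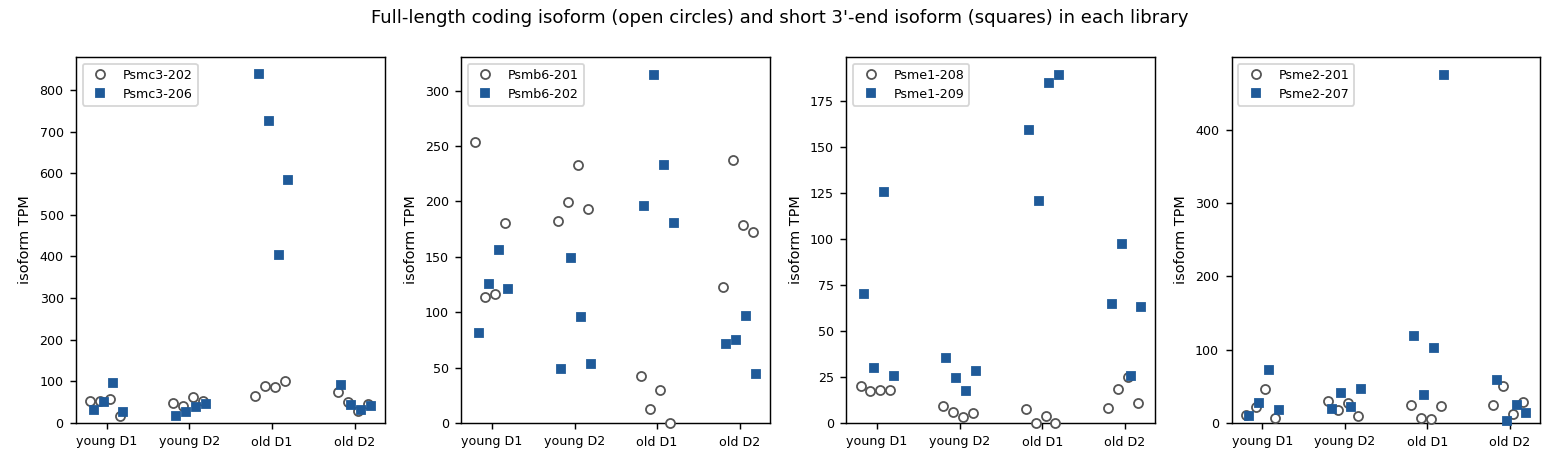
TPM (vertical axes, from 0) of the full-length coding isoform (open circles) and of the short isoform (squares) of Psmc3, Psmb6, Psme1 and Psme2 in each of the 16 libraries. In old D1 the squares of Psmc3-206 lie between 403 and 838 TPM and in each of the 4 genes every old D1 square lies above every old D1 circle; in Psmb6 the old D1 circles lie between 0 and 42.3 TPM.

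Short isoforms of this kind took more of the proteasome mRNA in old D1 than in any other group. A short isoform was defined, after the data were seen, as one that lacks at least 30% of the exonic bases of the full-length isoform at the 5′ end and ends within 250 bases of its 3′ end. The full-length isoform was the most abundant coding isoform with at least 75% of the longest coding length. At a mean of 3 TPM or more, 8 of the 35 genes had such an isoform, 9 isoforms in all: Psmb4, Psmb6, Psmc3, Psmc4, Psmd4, Psmd13, Psme1 with a pair of them, and Psme2. That mean includes old D1, so an isoform that is high there passes more easily, as Psmd13-210 did (means of 2.80 TPM in young D1, 1.91 in young D2, 3.62 in old D2 and 14.4 in old D1), and nothing is read from their number. With no minimum level, 10 genes had such isoforms. The share of these in the summed TPM of the 35 genes was 24.0, 23.2, 21.3 and 28.7% in the old D1 libraries. It was 5.41 to 10.7% in young D1, 3.97 to 6.74% in young D2 and 5.13 to 10.9% in old D2, so old D1 did not overlap any other group. Without Psmc3 the shares were 12.7 to 22.3% in old D1 and at most 9.31% elsewhere.

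**Figure D5:**
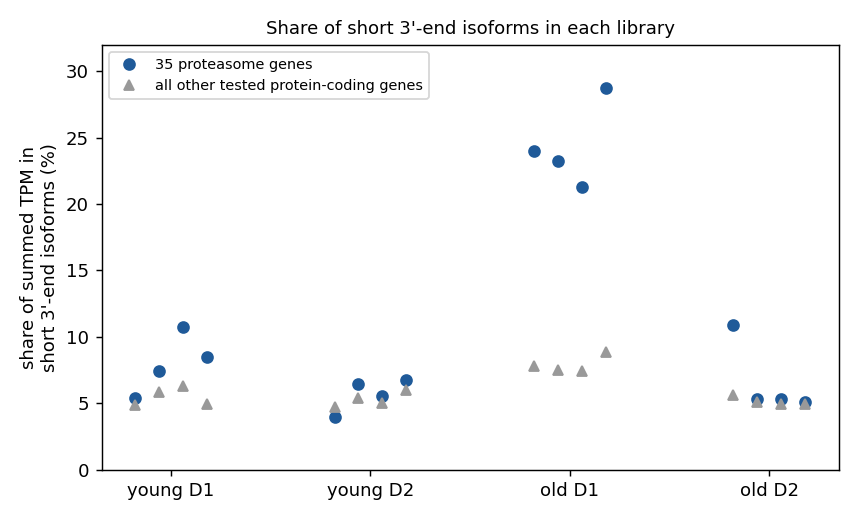
Share of summed TPM that lies in short 3′-end isoforms (vertical axis, percent), per library, for the 35 proteasome genes (circles) and for all other tested protein-coding genes (triangles). The proteasome genes sit at 21.3 to 28.7% in old D1 and at most 10.9% elsewhere; the other genes sit at 7.40 to 8.83% in old D1 and at 4.71 to 6.31% elsewhere.

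The same shift was present outside the proteasome. Over the other 12392 tested protein-coding genes the share was 7.40 to 8.83% in old D1 and 4.71 to 6.31% in the other 12 libraries. Only 1191 of these genes have such an isoform, beside 10 of the 35, so the levels of the 2 shares are not like for like. Over the 1201 tested protein-coding genes that have one, proteasome genes included, the share was 54.3 to 60.8% in old D1 and 34.6 to 45.0% in the other 12 libraries. Of the 22 proteasome genes in the isoform ratio test, 2 were called with age in D1 (Psmb6 and Psme1), 7 had an unadjusted p under 0.05, and limma called 5.19% of all genes, 3.41% higher and 1.78% lower. In D2 0 of 22 were called, with 0 at an unadjusted p under 0.05 and 0 with 0.1 TPM added in place of 1; limma called 0 of all 3430 genes there. The difference of the ratio changes between D1 and D2 was called for 0 of 22 and had an unadjusted p under 0.05 for 5, where limma called 1.05% of all genes (0.729% higher, 0.321% lower); it was 4.62 (SE 1.36, limma adjusted p = 0.11) for Psmb6. Fragments in the old D1 libraries were shorter, as given above, and the part of that in the isoform shares was not tested.

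Psmb4 and Psmd4 also had short forms. The full-length Psmb4-201 was at 228, 193, 153 and 195 TPM in young D1 and at 118, 30.1, 104 and 24.2 TPM in old D1. Its 292-base retained-intron isoform Psmb4-203 was at 34.5, 66.9, 96.2 and 71.5 TPM in young D1 and at 111, 40.7, 179 and 235 in old D1. For Psmd4, the ubiquitin receptor also called Rpn10, the full-length Psmd4-202 was at 37.2, 66.8, 31.7 and 76.3 TPM in young D1 and at 4.33, 0, 11.8 and 0 in old D1. Its short form Psmd4-206, which is typed protein-coding, stood at 36.5, 54.4, 53.2 and 88.0 TPM in young D1 and at 92.4, 95.9, 76.1 and 170.3 in old D1. An isoform can also shift without losing its 5′ end: Psma6-202, a nonsense-mediated decay form that lacks 1.92% of the 5′ bases, stood at 161, 216, 0 and 221 TPM in old D1 and at 0, 0, 47.9 and 0 in young D1.

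The sums over each part of the complex depended on which isoforms were counted. With all isoforms, the 35 genes summed to 5790 to 6721 TPM in old D1, above the 4262 to 5745 of the other 12 libraries. Without Psmc3 the ranges were 5092 to 6027 and 4201 to 5581 TPM, which overlap. All tested protein-coding genes together also summed higher in old D1, at 899738 to 910577 TPM against 777225 to 858352 in the others. With full-length isoforms alone the sum of the 35 genes was 3694 to 4172 TPM in old D1, within the 3415 to 4715 TPM of the others. That count leaves out the short isoforms and all further ones, such as the coding Psma3-204 at 228 to 517 TPM in old D1. The 7 full-length beta subunit mRNAs summed to 979 to 1235 TPM in old D1, below the 1389 to 1942 of the other 12. The 6 ATPases summed to 1064 to 1512 TPM in old D1 and 429 to 686 elsewhere with all isoforms; without Psmc3 the ranges were 449 to 796 and 364 to 600, which overlap. These sums describe levels and carry no test. In such bulk libraries fewer cells that express a gene and less RNA per cell cannot be told apart.

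Of the 11 other cap subunits, Psmd7 (chr8:107580381-107588464, minus strand), the partner of the deubiquitinase Psmd14 in the lid, was called. It was read at 115, 128, 123 and 95.8 TPM in young D1 and at 320.4, 324, 224 and 127 TPM in old D1, so only old D1 replicate 4 reached down into the young range. The log2 change was 1.02 (SE 0.25, edgeR adjusted p = 0.013). In D2 Psmd7 was at 177, 204, 152 and 178 TPM at 42 days and at 148, 161, 161 and 116 TPM at 2 years, a log2 change of -0.36 (SE 0.24). The difference between the age changes was 1.37 (SE 0.35, edgeR adjusted p = 0.048) and ended without any 1 of 14 libraries, all but old D1 replicates 3 and 4, with log2 values from 1.22 to 1.43 and adjusted p from 0.065 to 0.12. All its TPM were in protein-coding isoforms in every library.

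The remaining cap subunits had changes in D1 from -1.01 (Psmd13) to 0.97 (Psmd12), and none was called. Psmd12 (SE 0.32) and Psmd2 (log2 change -0.85, SE 0.30), the 19S base subunit also called Rpn1, came closest, with edgeR adjusted p of 0.061 and 0.073. Psmd14, the deubiquitinase of the lid, was at 100.0 ± 2.68 TPM (SD, n = 4) in young D1 and 121 ± 51.2 in old D1. Psmd3 had the widest spread, with a coefficient of variation of 107% in old D1, where its 4 values ran from 2.06 to 42.7 TPM. The median coefficient of variation over the 35 genes was 37.9% in old D1, against 28.6% in young D1, 20.6% in young D2 and 26.7% in old D2. It was 55.5%, 34.7%, 27.3% and 29.9% over the 7614 tested genes with a mean TPM at least that of the lowest of the 35. The 35 were not taken out of that set. The old D1 libraries varied more in both.

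Among the activators, Psme3, a nuclear ring, stood at 119, 66.6, 82.4 and 43.1 TPM in young D1 and 185, 48.8, 57.9 and 96.1 in old D1. In D2 it stood at 103, 122, 121 and 108 TPM at 42 days and 145, 118, 81.8 and 79.6 at 2 years. The changes of Psme3 were 0.21 (SE 0.35) in D1 and -0.23 (SE 0.35) in D2. Psme4 was the lowest of the 35 genes, at 14.2, 10.1, 8.15 and 13.3 TPM in young D1 and 8.37, 7.67, 10.3 and 19.4 in old D1. In D2 Psme4 was at 18.6, 9.23, 14.4 and 11.1 TPM at 42 days and 15.7, 8.36, 8.02 and 12.5 at 2 years. Both genes' groups overlapped throughout.

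Between the neuron types, 0 of the 35 genes differed at 42 days by edgeR, with 1 at an unadjusted p under 0.05 and 1 called by DESeq2; edgeR called 0.409% of all genes, 0.201% higher in D1 and 0.208% lower. The TPM of 3 genes (Psmc5, Psmd7 and Psme1) did not overlap, beside 6.35% of all genes (2.37% higher, 3.98% lower). On protein-coding isoforms edgeR called 0 of 35, with 0 at an unadjusted p under 0.05, beside 0.45% of all genes (0.246% higher, 0.205% lower). The largest difference was that of Psme1, 1.46 higher in D1 on the log2 scale (SE 0.49, edgeR adjusted p = 0.48). At 2 years 7 of 35 differed, beside 9.6% of all genes, 5.02% higher in D1 and 4.58% lower. Psma2, Psmc1, Psmc2, Psmc3 and Psmd7 were higher in old D1 than in old D2 and Psmb2 and Psmb4 were lower. The TPM of 7 genes did not overlap, beside 14.8% of all genes (4.66% higher, 10.2% lower). On protein-coding isoforms 8 were called, Psma2, Psma4, Psmc1, Psmc2 and Psmd7 higher and Psmb2, Psmb4 and Psmb6 lower, beside 10.5% of all genes (5.36% higher, 5.17% lower). This comparison uses the same old D1 libraries as the age comparison, so the pair of results is not independent. The largest values were 1.94 (SE 0.32, edgeR adjusted p = 0.00086) for Psmc3 and -1.84 (SE 0.44, adjusted p = 0.012) for Psmb2.

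Psmc2 and Psmc1 were called here and not with age. Psmc2 was at 167, 123, 145 and 213 TPM in old D1 and 59.0, 82.2, 79.9 and 55.4 in old D2, with a log2 difference of 1.37 (SE 0.30, edgeR adjusted p = 0.0072). In young D1 Psmc2 was at 87.2, 104, 103 and 51.7 TPM, and its age change did not pass the test (log2 change 0.87, SE 0.30, edgeR adjusted p = 0.063). Psmc1 was at 200.3, 157, 166 and 172 TPM in old D1 and 86.6, 92.6, 126 and 109 in old D2, with a log2 difference of 0.88 (SE 0.25, edgeR adjusted p = 0.034). In young mice Psmc1 was at 106, 189, 146 and 122 TPM in D1 and 111, 189.7, 137 and 142 in D2, and Psmc2 in young D2 at 57.1, 61.8, 95.9 and 89.1. The old groups of both genes did not overlap. The call of Psmc1 ended without any 1 of 7 libraries (young D2 replicates 3 and 4, old D1 replicates 1 and 4, old D2 replicates 1, 2 and 4), with log2 values of 0.78 to 0.87. That of Psmd7 (0.87, SE 0.25, edgeR adjusted p = 0.032) ended without any 1 of 9 (young D1 replicate 1, young D2 replicates 2 and 4, old D1 replicates 1 and 2, every old D2 replicate), with values of 0.71 to 0.93. Without a count filter, with only these groups fitted or with the GC and length trend removed, the calls of Psmc1 and Psmd7 ended as well; Psmd7 also with limma on log2(TPM + 1), at 0.68. That of Psmb4 (-1.31, SE 0.33, edgeR adjusted p = 0.017) ended without old D2 replicate 3, at -1.23, with voom and with only these groups fitted. On log2(TPM + 1) the difference of Psmb4 was -0.67 (limma adjusted p = 0.17), and the TPM of the groups overlap. The call of Psma2 ended with the GC and length trend removed, at 0.56 (edgeR adjusted p = 0.11). With only the old D1 and old D2 libraries fitted, the calls of Psmc2 (edgeR adjusted p = 0.052) and Psmb2 (edgeR adjusted p = 0.11) ended too.

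The ratio of isoforms also differed between old D1 and old D2. It was higher in old D1 for 5 of 22 genes, Psmb2, Psmb6, Psmc3, Psme1 and Psme2, where limma called 7.32% of all genes (5.28% higher, 2.04% lower). For Psmb6 the log2 difference was 5.55 (SE 0.96, limma adjusted p = 0.0017), and for Psmc3 it was 2.53 (SE 0.65, adjusted p = 0.023). The call of Psmc3 ended without old D1 replicate 1 or old D2 replicate 2 or 4 (2.24 to 2.49), and that of Psme1 (3.39) without old D1 replicate 4 or old D2 replicate 3 (2.70 to 2.75). That of Psme2 (3.79) ended without old D1 replicate 4 or old D2 replicate 2 or 4 (2.96 to 3.67). The call of Psmb2 (3.42) ended without any 1 of 13 libraries, all but young D1 replicate 4 and old D1 replicates 3 and 4 (adjusted p in limma from 0.0502 to 0.115). With 0.1 TPM added in place of 1, Psmb6 and Psme2 kept the call, and Psmc3 (2.54), Psme1 (4.33) and Psmb2 (2.88) lost it, with limma adjusted p of 0.064, 0.051 and 0.25. At 42 days 0 of 22 differed by limma, with 0 at an unadjusted p under 0.05 and 1 gene in 3430 called, 0.0292%.

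The rest of the pathway was read from lists of 64 genes, of which 62 were in the tables and 56 were tested. The immunoproteasome replaces the catalytic subunits when interferon acts on a cell. Its genes Psmb8 and Psmb9 were listed at 0 in 15 of 16 libraries each, with 2.71 TPM in old D2 replicate 2 and 5.23 TPM in young D1 replicate 2, and Psmb10 reached at most 9.00 TPM. The tissue-specific subunits Psma8 and Psmb11 were at or near 0. Of the 11 further subunits and bound factors, such as Adrm1, Sem1, Usp14 and Uchl5, 0 were called in D1 by edgeR, where 10.8% of all genes were called, with 1 at an unadjusted p under 0.05. Among the 4 genes that control proteasome transcription, including Nfe2l1 and Nfe2l2, 0 were called in D1 and 0 had an unadjusted p under 0.05.

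Of the 6 assembly factors, only Pomp, the chaperone of beta ring maturation, was called, a number to be read against the same 10.8%. Pomp fell in D1 by 0.86 on the log2 scale (SE 0.25, edgeR adjusted p = 0.035), from 597 to 343 TPM on average. Leaving out replicate 1 or 2 of the young D1 group, or 1 or 4 of the old, ended that call (-0.83 to -0.73). Among the ubiquitin and activating enzyme genes, Ubb, a polyubiquitin gene, fell from a mean of 832 to 311 TPM (log2 change -1.49, SE 0.32, edgeR adjusted p = 0.0060). Among 8 tested ligases Stub1, the ligase CHIP, had the largest change: it fell by 2.75 on the log2 scale (SE 0.58, edgeR adjusted p = 0.0053), from 69.7 to 11.1 TPM. Ube3b also fell (-1.24; -0.94 with an edgeR adjusted p of 0.73 on protein-coding isoforms) and Huwe1 rose (0.63, and -0.28 once a trend with GC content and length was removed). Of 11 shuttle factors and p97 genes, Ubqln2 and Rad23b (1.01) rose and Ubqln4 (-1.32) fell. Of 9 deubiquitinases, Usp8 (1.17) and Usp7 (0.86, and -0.60 on protein-coding isoforms) rose and Otub1 (-0.71) fell. Calls in each of these lists are likewise to be read against the 10.8% of all genes called in D1 (5.39% higher, 5.44% lower). Some of these calls rested on single libraries: Huwe1 on young D1 replicate 1 (0.54 without it), Usp8 on young D1 replicates 1 and 4 (1.10 to 1.13), Ubqln4 on young D1 replicate 4 and old D1 replicates 2 and 4 (-1.15 to -1.03). Usp7 rested on young D1 replicates 1, 2 and 3 and old D1 replicate 1 (0.62 to 0.84), Rad23b on those and old D1 replicate 4 (0.70 to 0.99), and Otub1 on any 1 of 9 libraries (-0.75 to -0.63; young D1 replicates 1 to 3, young D2 1 and 3, old D1 2 to 4, old D2 3). Otub1 also lost its call with no count filter, with voom and with limma on TPM. With the GC and length trend removed, these D1 calls ended: Otub1 (-0.0096), Usp7 (0.31), Usp8 (0.65), Rad23b (0.52), Ubqln4 (-0.84), Ube3b (-0.82), Stub1 (-1.66), Ubb (-0.93), Pomp (-0.78) and Huwe1. Fitted on the D1 libraries alone, edgeR called none of these except Ubb. In D2 0 of the 56 tested genes were called with age by edgeR, beside 0.079% of all genes, with 1 at an unadjusted p under 0.05.

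GC content, length and promoter letters of the 35 genes were read beside those of all genes. Across the 35 the log2 change with age in D1 had a Spearman rho of -0.41 with the GC content of the main isoform. Over 13567 tested genes it was -0.34. In D2 the values were -0.23 and -0.01. These describe genes that share libraries and base composition, and carry no test. The median GC content of the main isoform was 49.5% for the 35 genes and 49.9% for all. Its median length was 1332 bases for the 35 genes and 2712 for all. Promoter windows from RefSeq (GRCm38.p6, 250 bases before to 50 after the start) were matched by symbol for 29 of the 35. The letters TGACNNNGC, the core of the antioxidant response element to which Nfe2l1 binds, were searched on both strands. They lay in 5 of the 32 windows of these genes (Psmb5, Psmb6, Psmc6, Psmd12 and Psme4), 15.6%, and in 12.4% of all 32851 windows; a match of letters is not a binding site.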

How the data were processed

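Gene and isoform levels were measured by TRAP and RNA sequencing in 16 libraries, 4 per group; the design text calls them biological replicates. The authors deposited expected counts and TPM per gene and isoform, made with STAR 2.5.1b and RSEM 1.2.20 on mm10, per the submitters' processing notes. Their annotation release, and whether strand was used, is not stated in the sources used here. Expected counts were rounded and tested with edgeR 4.0.16 (robust quasi-likelihood, TMM, filterByExpr, all 16 libraries, R 4.3.3), Benjamini-Hochberg adjusted over 13926 genes at 0.05. limma 3.58.1 tested TPM and isoform ratios, and DESeq2 1.42.0 was an alternative. Names, types and positions came from GENCODE M21, which matched 37693 of 39017 genes. Depth was 27484038 to 70903004 fragments, and p-values measure the spread between these libraries. All 35 genes could be named; values per library are given for genes called in any comparison, the catalytic and activator genes, and the highest and lowest gene. The genes and lists were chosen with earlier results of these data known. Alternatives were other scalings, filters, tools and left-out libraries. One result of the ubiquitin gene list is not reported here.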

Additional observations from a re-analysis of the deposited data

Results flagged for a closer look

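Among 60 groups of 4 libraries, 1 held a library far from the other 3: Psmc3 in old D2 replicate 1, at 169 TPM against 88.4 to 97.6 TPM. Chance gives such a gap in about 1 of 20 groups. The age change of Psmc3 was larger in D1 than in D2 by 1.88 on the log2 scale, and that of Psmd7 by 1.37, each by a test of the difference itself in edgeR (adjusted p = 0.035 and 0.048).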

How the results depend on the processing

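With age in D1, 6 genes were called (1508 of 13926 in all); DESeq2 called 10 (2600 of 13649), voom with library weights 3 (547 of 13926), and a fit of only the 2 groups compared 1 (305 of 12244). For the difference between the age changes, 2 were called (246 in all); DESeq2 called 4 (1019 in all), and RLE scaling, no count filter, limma on log2 TPM with 1 or 0.1 added, and removal of the GC and length trend called 1 each (46 to 240 in all). At 42 days DESeq2 called 1 (189 in all) and edgeR 0 (57). At 2 years 7 were called (1337 in all), but 2 with only the groups compared (354) and 4 after removal of that trend (902). Leaving out each library in turn gave 5 to 8 calls with age in D1, 0 in D2, 0 to 2 for the difference, 0 at 42 days and 5 to 8 at 2 years. It gave 2 to 5 isoform ratios in D1 and 0 in D2. Huwe1 turned to -0.28 (age in D1) and -0.032 (D1 against D2 at 2 years) after the same removal, and Usp7 to -0.60 on protein-coding isoforms; the cause was not tested. The median of all genes for age in D1 was -0.06, and -0.38 with voom. No paired analysis was possible because the labels give no replicate numbers or pairs. Isoform levels are RSEM estimates, and fragments that overlapping isoforms share limit them.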
